A study of Mus musculus with 15 samples.

Results

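The genes described here encode the receptors of the interleukin-6 cytokine family and the leptin receptor, together with the signalling proteins beneath them: Lepr, Il6ra, Il6st, Osmr, Lifr, Jak1, Jak2, Stat3 and Socs3. They were followed in primary hepatocytes, liver parenchymal cells taken directly from the animal, of male C57BL/6 mice. On the arrays, 28 of 45101 probe sets carried 1 of these 9 symbols alone in the platform annotation, and every one of them was examined. The genes had been chosen with their values on these arrays already known, so their values are given as a description, with standard errors and without p-values.

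RNA had been hybridised to 15 arrays in 5 groups, each with 3 independent biological replicates. One group was cells taken straight after isolation (t0, called fresh cells). The others were cells held for 4 h or 24 h as a monolayer in a tissue culture dish (TCD) and cells held for 4 h or 24 h as aggregates in a rotating wall vessel (RWV), a slowly turning chamber that keeps cells in suspension. Neither the age of the mice nor whether groups shared animals is stated in the sources used here.

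All values are log2 changes from fresh cells, because the median of the 3 fresh arrays was 0 in each of the 45101 probe sets. A value of 1 is a doubling of signal, and the level of a gene, or of one gene against another, cannot be read from these data. In bulk RNA, fewer cells of a type and less RNA per cell cannot be told apart. Of the 28 probe sets, 24 varied apart from the array background; the other 4 (1425873_a_at for Lepr, 1418675_at and 1459217_at for Osmr, 1424272_at for Stat3) stayed between -0.09 and 0.14 on all 15 arrays. Each gene kept at least 1 probe set, and the account of a gene leads with the one that varied most.

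Cytokines of this family bind a ligand-specific receptor chain, such as the interleukin-6 receptor or the oncostatin M receptor, that pairs with the shared chain encoded by Il6st. The leptin receptor is built on the same plan. Receptor-bound Janus kinases, among them Jak1 and Jak2, then phosphorylate Stat3, which enters the nucleus and activates its target genes. Socs3 is one of those targets and shuts the receptors down, and in hepatocytes the pathway drives the acute phase response.

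The 250 bases upstream of the start sites of Lepr, Osmr and Socs3 are shown because these genes had the largest changes of the 9, upward for the first pair and downward for Socs3. The sequences are from RefSeq on mouse build GRCm38.p6, printed 5′ to 3′ on the strand of the gene. Lepr lies on the plus strand at chr4:101717157-101717406 (1 of its 2 listed starts), Osmr on the minus strand at chr15:6874314-6874563, and Socs3 on the minus strand at chr11:117969367-117969616. Capitals mark TTCNNNGAA, the palindromic core that STAT proteins bind, which reads the same on both strands.
Lepr: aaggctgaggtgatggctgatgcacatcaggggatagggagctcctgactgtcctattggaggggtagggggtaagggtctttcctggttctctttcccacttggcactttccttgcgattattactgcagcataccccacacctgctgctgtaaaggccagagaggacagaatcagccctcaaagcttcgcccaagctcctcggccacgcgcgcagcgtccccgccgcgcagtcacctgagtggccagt
Osmr: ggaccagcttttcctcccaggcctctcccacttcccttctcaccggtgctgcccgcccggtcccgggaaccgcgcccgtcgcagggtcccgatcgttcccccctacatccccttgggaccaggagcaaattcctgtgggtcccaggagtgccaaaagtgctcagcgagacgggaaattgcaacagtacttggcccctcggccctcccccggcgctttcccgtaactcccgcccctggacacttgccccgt
Socs3: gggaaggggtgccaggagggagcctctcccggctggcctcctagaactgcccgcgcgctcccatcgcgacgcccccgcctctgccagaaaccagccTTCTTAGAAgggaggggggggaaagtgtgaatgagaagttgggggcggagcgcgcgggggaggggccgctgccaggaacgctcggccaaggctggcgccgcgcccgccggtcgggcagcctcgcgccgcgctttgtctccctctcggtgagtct
The Socs3 window holds 1 match, TTCTTAGAA, which begins 154 bases upstream of the start. It was the single match among the 11 start sites listed for the 9 genes, and 7.02% of all 32851 windows of this length hold one. A missing match says only that these letters are not in this window.

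The first question was whether aggregates and monolayers differed. Lepr, the receptor for the fat-cell hormone leptin, was high in the 24 h aggregates and in no other group. At probe set 1425644_at the 24 h RWV arrays read 3.24, 4.53 and 5.14, while the 24 h TCD arrays read -0.06, -0.08 and -0.09. Every other array lay between -0.10 and 0.36, so the 24 h RWV group did not overlap with any other. RWV exceeded TCD at 24 h by 4.38 ± 0.34 on the log2 scale, against 0.04 ± 0.34 at 4 h. The 24 h TCD and fresh values lay within the range of the 4 probe sets at background, and this probe set stood apart from background mainly through the 24 h RWV arrays, so the difference gives no exact fold.

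A further pair of Lepr probe sets moved the same way. Probe set 1456156_at read 3.84, 4.25 and 5.06 in the 24 h RWV arrays, 4.44 ± 0.38 above TCD. One 4 h RWV array, that of replicate 3, already stood at 1.61 on it, whereas the other 4 h RWV arrays read -0.05 and 0.17. Its fresh and 24 h TCD arrays lay from -0.13 to 0.07, so its difference gives no exact fold either. Probe set 1425875_a_at read 0.83, 1.52 and 2.57, with a smaller difference of 1.66 ± 0.30. On all other arrays it lay from -0.04 to 0.04, so it passed the background filter only through the 24 h RWV arrays. It is thus no separate support for the rise. The highest 24 h RWV array was that of replicate 3 on all 3 Lepr probe sets not at background. The remaining Lepr probe set, 1425873_a_at, was at background and showed no rise, with -0.02, -0.03 and -0.05 in the 24 h RWV arrays.

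**Figure D1:**
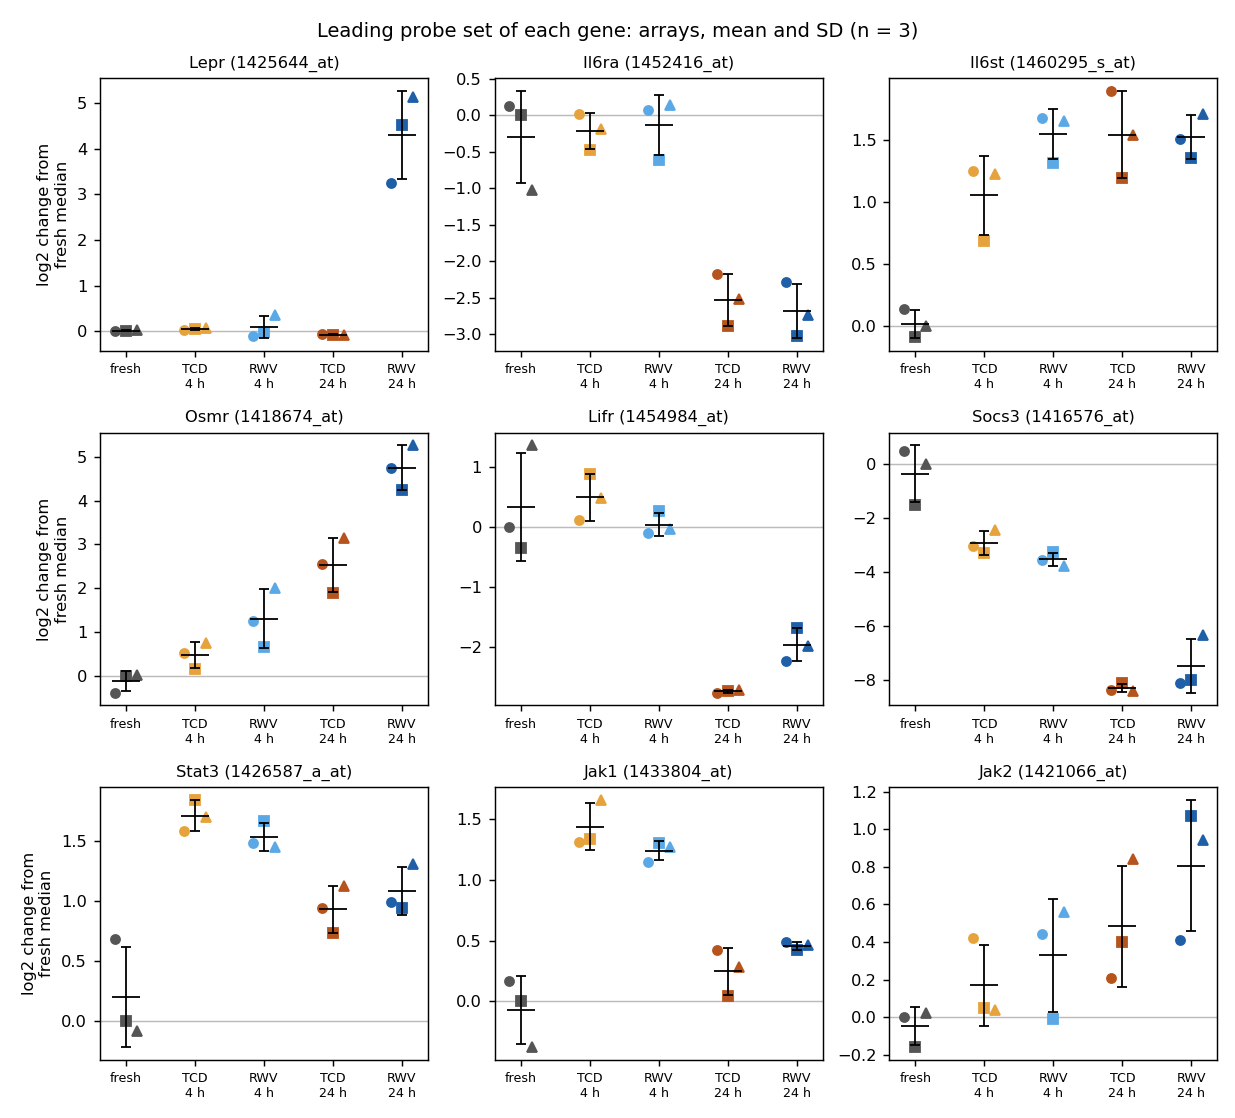
Each panel plots 1 gene at its most variable probe set, with the log2 change from the fresh median on the vertical axis (scales differ between panels) and the 5 groups on the horizontal axis. Symbols are single arrays (circle, square and triangle for replicates 1, 2 and 3), and lines give the mean and SD of 3. Lepr stays near 0 except in the 24 h RWV arrays (3.24 to 5.14), and Socs3 falls in every cultured group.

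Osmr, which pairs with Il6st to bind oncostatin M, rose with time in both vessels and stood higher in aggregates at 24 h. At probe set 1418674_at, the only 1 of 3 not at background, the 4 h TCD arrays read 0.52, 0.17 and 0.75 and the 4 h RWV arrays 1.26, 0.66 and 2.01. At 24 h TCD read 2.55, 1.90 and 3.15 and RWV 4.74, 4.25 and 5.26. The 2 vessels overlapped at 4 h and did not at 24 h, and the difference was 0.83 ± 0.38 at 4 h and 2.22 ± 0.38 (4.65-fold) at 24 h. Against fresh cells Osmr was higher by 4.87 ± 0.38 in the 24 h RWV arrays and by 2.65 ± 0.38 in the 24 h TCD arrays.

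For Lifr, the receptor chain for leukemia inhibitory factor, the 3 probe sets disagreed about the vessels, so its vessel difference is uncertain. At 24 h, probe set 1454984_at read -2.76, -2.73 and -2.71 in TCD and -2.22, -1.67 and -1.98 in RWV, so RWV lay higher by 0.78 ± 0.35. Probe set 1425107_a_at read -1.99, -2.0 and -2.27 in TCD and -2.92, -2.84 and -3.58 in RWV, a difference of -1.03 ± 0.18 the other way. Neither pair of groups overlapped. On 1450207_at all 6 of these arrays sat between -0.52 and -0.43, and the vessels differed by -0.03 ± 0.37. The SD there was 0.031 in TCD and 0.021 in RWV, against 0.68 in fresh cells. On 1454984_at it was 0.025 in TCD at 24 h, against 0.91 in fresh cells. Values this close together may lie at a lower limit of signal, where a vessel difference would not show in full. This was not tested. Both of the first pair of probe sets lay below fresh at 24 h, by differences from -2.12 to -3.14 on the log2 scale in the 2 vessels. At 4 h the probe sets disagreed as well. Against fresh cells in TCD, 1450207_at was higher by 1.56 ± 0.37, without overlap. There 1454984_at differed by 0.16 ± 0.35 and 1425107_a_at by -0.14 ± 0.18. In RWV at 4 h the differences were 0.82 ± 0.37, -0.30 ± 0.35 and -0.26 ± 0.18 in the same order, all with overlap.

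**Figure D2:**
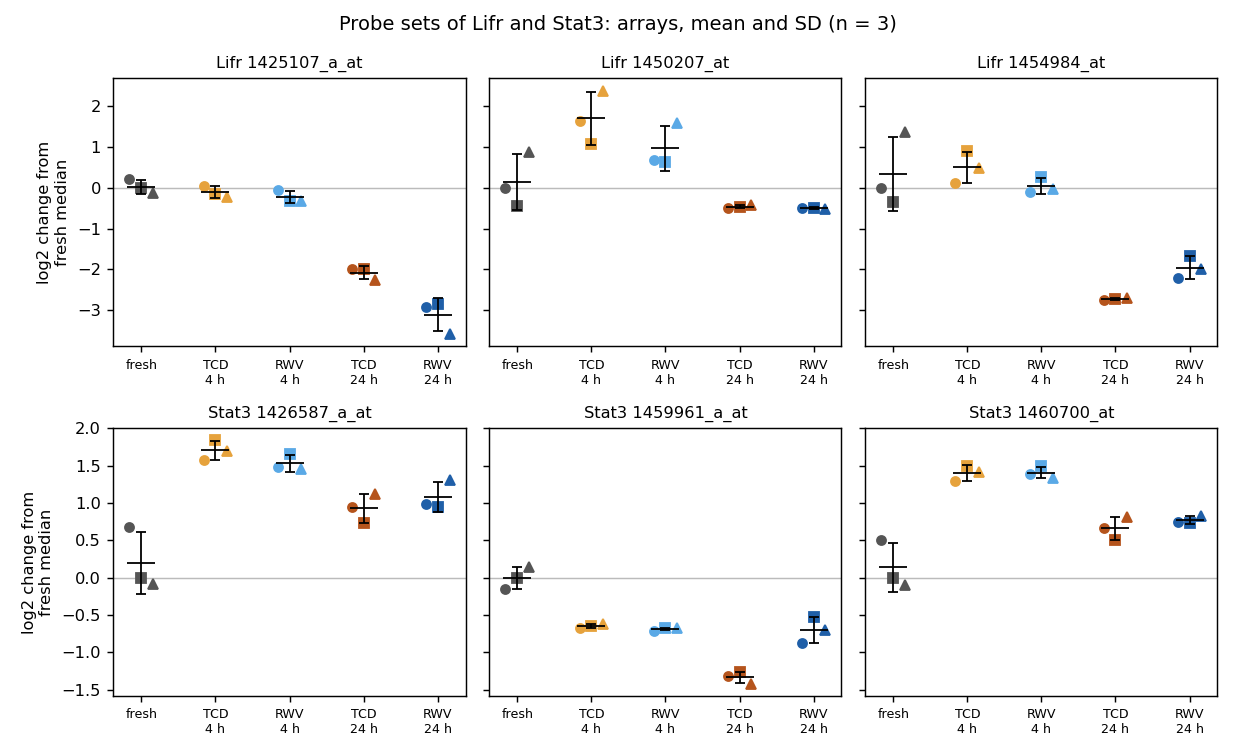
Values of the Lifr and Stat3 probe sets that were not at background, as log2 change from the fresh median, for every array of the 5 groups (circle, square and triangle for replicates 1, 2 and 3), with the mean and SD of 3. Lifr 1454984_at and 1425107_a_at separate the 24 h vessels in opposite directions, and Stat3 1459961_a_at lies below fresh where the other Stat3 probe sets lie above it.

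Il6ra, the chain that binds interleukin-6 itself, did not separate the vessels but was low in both at 24 h. Probe set 1452416_at read 0.01, -0.47 and -0.19 in TCD and 0.07, -0.61 and 0.14 in RWV at 4 h, overlapping with fresh cells (0.13, 0 and -1.02). At 24 h it read -2.17, -2.88 and -2.52 in TCD and -2.28, -3.02 and -2.74 in RWV, with no overlap with fresh. The differences from fresh were -2.22 ± 0.32 and -2.38 ± 0.32, and the vessels differed by -0.16 ± 0.32. The second Il6ra probe set, 1422270_a_at, gave -1.79 ± 0.37 and -2.01 ± 0.37 against fresh.

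Il6st, the shared signalling chain, was above fresh cells in every culture at its most variable probe set, although its 24 h TCD call was lost after centring on reference genes (0.35). At probe set 1460295_s_at the fresh arrays read 0.14, -0.09 and 0. The 4 h TCD arrays read 1.25, 0.69 and 1.23 and the 4 h RWV arrays 1.68, 1.32 and 1.66, and the 24 h arrays lay from 1.20 to 1.90 in TCD and from 1.36 to 1.71 in RWV. RWV stood above TCD by 0.49 ± 0.19 at 4 h, without overlap, and the difference at 24 h was -0.03 ± 0.19. Probe set 1452843_at followed the same course, whereas 1421239_at stayed between -0.08 and 0.25 on all arrays. Probe set 1437303_at was close to fresh at 24 h, with differences of -0.30 ± 0.18 in TCD and -0.02 ± 0.18 in RWV, and both groups overlapped with fresh cells.

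Among the kinases, Jak1 was higher at 4 h than in fresh cells and nearer to them at 24 h, where centring on reference genes put it below them (-0.87 in TCD, -0.19 in RWV). Probe set 1433804_at read 1.31, 1.34 and 1.66 in TCD and 1.15, 1.30 and 1.27 in RWV at 4 h, all above the fresh values of 0.17, 0 and -0.38. At 24 h it read 0.42, 0.04 and 0.28 in TCD and 0.49, 0.42 and 0.46 in RWV, and the difference between vessels was 0.21 ± 0.15. Jak2, which docks on Lepr, read 0.21, 0.40 and 0.84 in TCD and 0.41, 1.07 and 0.94 in RWV at 24 h (probe set 1421066_at). The vessels overlapped for Jak2 and differed by 0.32 ± 0.21. Against fresh cells at 24 h, the other Jak1 probe sets, 1433803_at and 1433805_at, differed by 0.08 and 0.78 in TCD and by 0.60 and 1.06 in RWV. The 24 h TCD arrays overlapped with fresh cells at 1433803_at. Jak2 probe set 1421065_at differed from fresh by 0.24 in TCD and 0.48 in RWV, and both groups overlapped with fresh cells.

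Stat3, the transcription factor that the receptors share, was above fresh cells at both times on 2 of its 3 usable probe sets, except that in TCD at 24 h it was below them after centring on reference genes (-0.45). Probe set 1426587_a_at read 1.58, 1.84 and 1.70 in TCD and 1.48, 1.66 and 1.45 in RWV at 4 h, against 0.68, 0 and -0.08 in fresh cells. At 24 h the values were 0.94, 0.73 and 1.12 in TCD and 0.99, 0.94 and 1.31 in RWV, so the vessels overlapped. Probe set 1460700_at moved likewise. Probe set 1459961_a_at instead read -1.32, -1.27 and -1.42 in TCD and -0.88, -0.53 and -0.70 in RWV at 24 h, below fresh in both and 0.64 ± 0.099 higher in RWV, so the direction of Stat3 as a gene is uncertain.

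Socs3, the feedback inhibitor that binds Il6st and Lepr, had the largest change from fresh cells of the 9. At probe set 1416576_at fresh cells read 0.49, -1.52 and 0. The 4 h arrays read -3.02, -3.30 and -2.44 in TCD and -3.53, -3.26 and -3.76 in RWV. At 24 h they read -8.35, -8.10 and -8.39 in TCD and -8.11, -7.97 and -6.31 in RWV. Every cultured array was below every fresh array, and every 24 h array was below every 4 h array.

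The differences of Socs3 from fresh were -2.58 ± 0.52 and -3.18 ± 0.52 at 4 h in TCD and RWV, and -7.94 ± 0.52 and -7.12 ± 0.52 at 24 h. The other Socs3 probe sets gave -6.09 ± 0.36 and -6.19 ± 0.35 for TCD, and -5.74 ± 0.36 and -5.79 ± 0.35 for RWV, at 24 h. The size of the fall thus depended on the probe set. Between vessels the 3 probe sets read -0.60 to -0.71 at 4 h and 0.35 to 0.82 at 24 h, with standard errors of 0.35 to 0.52. With 1 array left out, the 24 h difference at 1416576_at ran from 0.24 to 1.14. Its SD in the 24 h TCD arrays was 0.15, against 1 in fresh cells and 1 in the 24 h RWV arrays. Whether the 24 h values lie at a lower limit of signal was not tested.

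**Figure D3:**
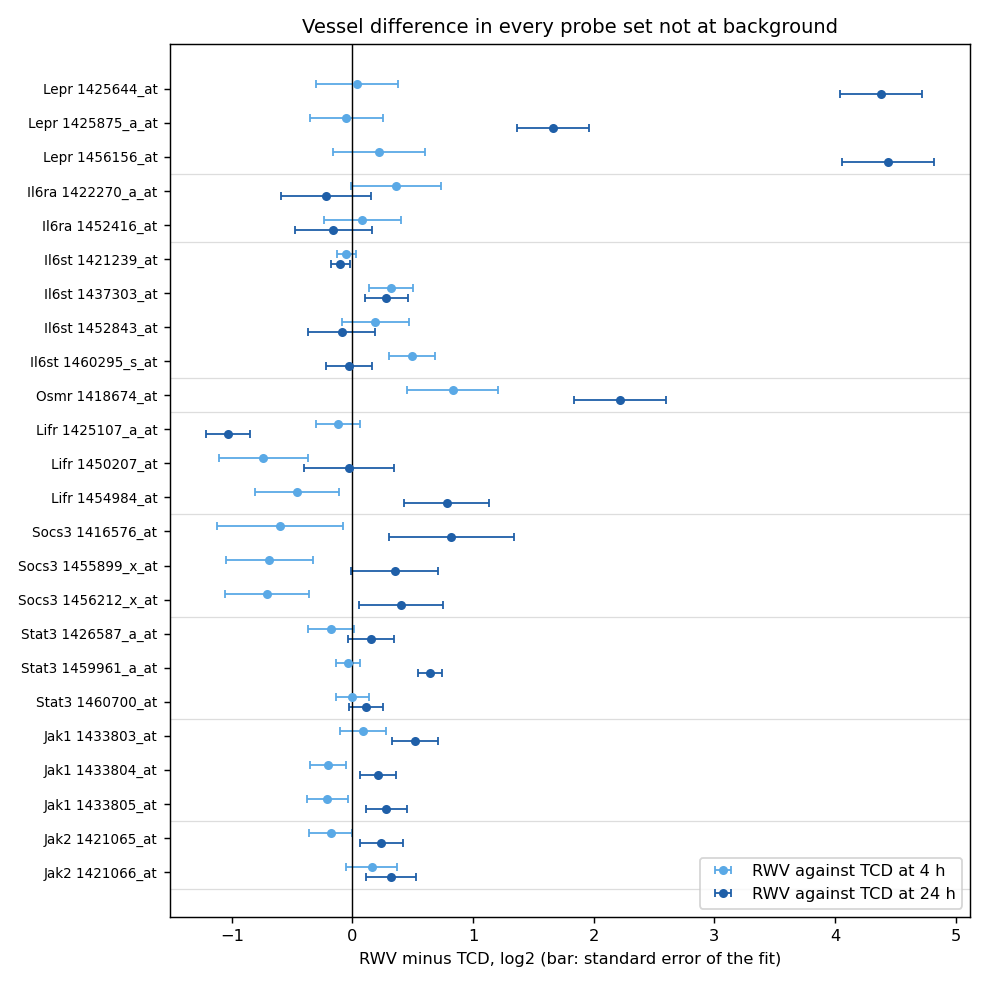
Differences between vessels (RWV minus TCD, log2) at 4 h and 24 h for the 24 probe sets of the 9 genes that were not at background; bars are standard errors from the fit over all 15 arrays. The 3 Lepr probe sets and the Osmr probe set lie to the right at 24 h, and most others lie near 0.

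Counted over the 9 leading probe sets at an adjusted p below 0.05 (limma, Benjamini-Hochberg over 22096 probe sets), 2 genes were called between vessels at 24 h, Lepr and Osmr, where 15.2% of the 12423 genes tested were called; both were higher in RWV, as were 8.36% of all genes. For the change of the vessel difference with time 1 was called, Lepr, where 12.6% of all genes were called, 4.9% of all upward. At 4 h 0 were called (2 had an unadjusted p below 0.05), where 6.07% of all genes were called. With the replicate number as a block, which the arrays support for the 4 h groups, 1 was called at 4 h (Il6st, 0.49). Groups did not overlap for 2 of 9 genes at 4 h and 3 of 9 at 24 h, against 33.3% and 39.1% of all genes. The median difference over the 9 was 0.04 at 4 h and 0.32 at 24 h, and that over all genes was within 0.07 of 0 in each comparison. Because the arrays chose the genes, nothing is read from these counts.

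Against fresh cells, 4 of the 9 were called in TCD at 4 h, where 25.1% of all genes were called: 3 higher (9.39% of all genes) and 1 lower (15.7%). In RWV at 4 h 5 were called, where 29.4% of all genes were: 4 higher (15%) and 1 lower (14.4%). Among them was Osmr, whose call was lost without fresh replicate 1 or without RWV replicate 3.

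At 24 h 6 were called against fresh in TCD, where 56.1% of all genes were: 3 higher (32.8%) and 3 lower (23.4%). In RWV all 9 were called, where 49.7% of all genes were: 6 higher (30.6%) and 3 lower (19.1%). From 4 h to 24 h 6 were called in TCD, where 55.5% of all genes were: 1 higher (36%) and 5 lower (19.5%). In RWV 6 were called, where 41.4% of all genes were: 2 higher (26.3%) and 4 lower (15.1%). Groups did not overlap with fresh for 7 and 5 of 9 at 4 h (TCD, RWV; 39% and 51.2% of all genes) and for 8 and 9 of 9 at 24 h (76.3% and 71.6%). Between 4 h and 24 h they did not for 7 of 9 in each vessel (74.3% and 55.2%). The comparisons with fresh cells share the same 3 fresh arrays. Here too the genes had been chosen with these values known. Nothing is therefore read from the counts of the 9 against fresh cells or between 4 h and 24 h.

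The scale of the 24 h values matters for the smaller changes. Centring the arrays on 7 reference genes moved all genes by -1.19 in TCD and -0.71 in RWV against fresh cells at 24 h, and by 0.47 between the vessels. On that scale Stat3 in TCD and Jak1 in both vessels changed sign against fresh, and the calls of Il6st in TCD, Jak2 in RWV (0.14) and Stat3 in RWV (0.17) were lost; Jak2 in TCD, 0.53 and not called as reported, was -0.66. Between vessels at 24 h 8 of the 9 genes were then called. Lepr, Osmr, Il6ra, Lifr and Socs3 kept their direction against fresh cells at 24 h on this scale wherever they had been called. The 7 reference genes did not themselves hold steady in culture. At 24 h their means ran from -1.03 (Sdha) to 1.95 (Polr2a) in TCD and from -0.66 (Sdha) to 1.40 (Gusb) in RWV. Polr2a, at 0.66 in RWV, also differed between the vessels. Which of the scales is nearer to the true one was not tested.

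The other genes of the pathway were read from 6 lists of 95 genes, 79 of which had a probe set that varied apart from background. The lists were written from general knowledge, but with earlier results of these data known. Their counts and adjusted p-values are therefore descriptions too. Of the ligands, 5 of 10 were measured; Il6, Osm and Lep were at background throughout. Clcf1, a cytokine that signals through Il6st and Lifr, rose in RWV at 24 h relative to TCD (1.22 ± 0.25, adjusted p = 0.00595). Its 24 h RWV arrays lay from 2.58 to 3.17 and its 24 h TCD arrays from 1.19 to 2.14. It was the 1 of 5 ligands called at 24 h, where 15.2% of all genes were called. At 4 h 0 ligands were called by limma (0 with an unadjusted p below 0.05), against 6.07% of all genes. The call of Clcf1 at 24 h rested on probe set 1437270_a_at: without probe sets of shared sequence, those whose suffix marks several transcripts, the difference was 0.02, and with only the 2 groups in the fit the call was lost. Ctf1, cardiotrophin, fell against fresh in all 4 cultures, by 1.07 in TCD at 24 h (adjusted p = 0.000808 from limma); its 4 h TCD call was lost with only the groups compared or without any 1 of fresh replicates 2 and 3 and TCD replicates 1 and 3.

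Of 7 other receptor genes 2 were measured, Leprot and Leprotl1, which encode small membrane proteins that share the Lepr locus or family and limit receptor display. Both rose against fresh at 24 h, where 32.8% of all genes rose in TCD and 30.6% in RWV, although the TCD calls were lost after centring on reference genes. Leprot rose by 1.68 ± 0.24 in TCD and 2.0 ± 0.24 in RWV (adjusted p = 6.76e-05 and 2.37e-05 from limma). Between vessels Leprot differed by 0.83 ± 0.24 at 4 h (adjusted p = 0.069), which did not pass the test. Leprotl1 differed between the vessels at 24 h by -0.18 ± 0.11 (adjusted p = 0.369).

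Among 11 of 13 further JAK-STAT genes, 1 was called between vessels at 24 h, Stat5b, which serves the growth hormone receptor, higher in RWV by 0.89 ± 0.24 (adjusted p = 0.0273 from limma). That is 9.09% of the list, near the 8.36% of all genes that were higher. The call of Stat5b was lost with no background filter and without TCD replicate 2 or 3 or RWV replicate 2 or 3 of the 24 h arrays. At 4 h 0 were called by limma (3 had an unadjusted p below 0.05), where 6.07% of all genes were called. Against fresh cells at 4 h, 3 rose and 2 fell in each vessel, where 9.39% of all genes rose and 15.7% fell in TCD and 15% and 14.4% in RWV. Stat5a rose by 1.63 ± 0.35 in TCD and 2.27 ± 0.35 in RWV, and Sos1, a Ras exchange factor, fell by 1.72 and by 1.24, the latter not called over the mean of its probe sets (-0.48). At 24 h 3 rose and 1 fell in TCD, where 32.8% of all genes rose and 23.4% fell. In RWV 5 rose and 0 fell, where 30.6% and 19.1% did.

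Of the feedback inhibitors, 15 of 16 were measured, and the most changed was Ptpn2, a phosphatase that removes phosphate from Janus kinases and STATs. It rose against fresh by 7.81 ± 0.45 in TCD and 6.09 ± 0.45 in RWV at 4 h (adjusted p = 2.38e-07 and 1.57e-06), and by 4.74 and 2.02 at 24 h (2.21 and 0.98 over the mean of its probe sets). It was lower in RWV than in TCD at both times, at 4 h by -1.73 ± 0.45 (adjusted p = 0.0479) and at 24 h by -2.73 ± 0.45 (adjusted p = 0.00169). The 4 h call was lost with the replicate block, with only the groups compared and without any 1 of 12 arrays, among them each 4 h TCD array and RWV replicates 1 and 3; over the mean of its probe sets the differences were -0.99 and -1.22, and the rises at 4 h 4.00 and 3.01. Pias1, an inhibitor of STAT binding to DNA, was higher in RWV at 4 h by 1.44 ± 0.21 (adjusted p = 0.0035), and by 0.89 over the mean of its probe sets; the call was lost with only the groups compared.

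At 24 h 4 of these 15 inhibitors were called between vessels, 2 higher (8.36% of all genes) and 2 lower in RWV (6.87%). Pias3 (0.64 ± 0.18, adjusted p = 0.0322) and Ptpn6 (0.58 ± 0.15, adjusted p = 0.0237) were higher in RWV, and Pias2 (-0.57 ± 0.13, adjusted p = 0.00913) and Ptpn2 were lower. The call of Pias3 was lost with no background filter and without any 1 of the 6 arrays compared and that of Ptpn6 without any 1 of them except TCD replicate 2. Pias2 turned to 0.07 over the mean of its probe sets and to 0.64 without probe sets of shared sequence, and its call was lost with reference genes, so its direction is uncertain. Socs2, a relative of Socs3, fell in all 4 cultures, with differences from fresh of -3.17 to -3.28, but over the mean of its probe sets these were -0.13 in TCD and -0.25 in RWV at 4 h, not called. The SD of Socs2 was 0.011 to 0.042 within the cultures, against 0.98 in fresh cells. Its cultured values may thus lie at a lower limit of signal, and the size of the fall is not exact. Socs5 rose in all 4, by 1.97 to 2.85.

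All 18 early STAT3 target genes on the list were measured. Between vessels at 4 h 2 were called, both lower in RWV (0.676% of all genes were): Fos, a transcription factor of the immediate early response (-1.79 ± 0.32, adjusted p = 0.00823), and Pim1, a kinase (-1.60 ± 0.30, adjusted p = 0.0112). At 24 h 1 was called, Fos, higher in RWV by 1.20 ± 0.32 (adjusted p = 0.0252 from limma), where 8.36% of all genes were higher. However, its arrays overlapped and the call was lost without replicate 2 or 3 of either vessel. With only the 2 groups in the fit none of these 3 calls remained. Against fresh cells at 4 h 8 rose and 3 fell in TCD, where 9.39% of all genes rose and 15.7% fell, and 9 rose and 4 fell in RWV (15% and 14.4%). At 24 h 8 rose and 9 fell in TCD, where 32.8% of all genes rose and 23.4% fell, and 8 rose and 8 fell in RWV (30.6% and 19.1%). Klf6 rose most, by 8.42 ± 0.20 in TCD and 8.49 ± 0.20 in RWV at 4 h, and Egr1 and Fos fell in all cultures, although the 4 h TCD call of Egr1 (-1.33) was lost with only the groups compared or without any 1 of fresh replicates 1 and 3 and TCD replicate 1. Many of these genes also answer to other signals.

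The acute phase genes, plasma proteins and related genes that hepatocytes make in inflammation, showed no vessel difference past the test. Of 28 of 31 measured, 0 were called by limma at 4 h (0 with an unadjusted p below 0.05) and 0 at 24 h (8 with an unadjusted p below 0.05). Of all genes 6.07% were called between vessels at 4 h and 15.2% at 24 h. The smallest p of these acute phase genes at 24 h was that of Apcs (0.69 ± 0.22, adjusted p = 0.0526 from limma). Against fresh cells 10 rose and 0 fell at 4 h in each vessel, where 9.39% of all genes rose in TCD and 15% in RWV. At 24 h 7 (25%) rose and 10 (35.7%) fell in TCD, against 32.8% and 23.4% of all genes. In RWV 9 (32.1%) rose and 6 (21.4%) fell, against 30.6% and 19.1%. Cd14, also a macrophage gene, rose by 7.54 ± 0.29 in TCD and 8.09 ± 0.29 in RWV at 4 h, and Il1rn, an interleukin-1 antagonist, by 7.35 ± 0.54 and 8.29 ± 0.54. Saa4, a serum amyloid A gene, differed from fresh by -5.48 in TCD and -6.85 in RWV at 24 h, and Crp by -1.67 and -2.05, all called. Saa2, another serum amyloid A gene, went the other way in both vessels at 24 h, with means of 3.05 in TCD and 3.02 in RWV. In RWV its difference from fresh was 2.81 ± 0.52, also called. The SD of Saa2 at 24 h was 0.062 in TCD and 0.0014 in RWV, against 1.5 in fresh cells. Whether signal was limited at values this close together was not tested, so the size of the rise is not exact. Cd14 and Lcn2 were likewise called higher than fresh at 24 h, by 9.05 and 3.54 in TCD and by 8.69 and 3.24 in RWV.

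Over the 79 genes, 29 rose and 23 fell in TCD at 24 h against fresh cells, where 32.8% of all genes rose and 23.4% fell, and 14 and 45 did after centring on the reference genes. In RWV 32 rose and 17 fell (30.6% and 19.1% of all genes), and 21 and 37 after centring. Between vessels at 24 h 5 were higher and 2 lower in RWV, where 8.36% of all genes were higher and 6.87% lower, and 32 and 1 after centring. At 4 h 1 was higher and 3 lower, where 5.39% of all genes were higher and 0.676% lower. The 24 h count of 7 fell to 3 without RWV replicate 3 and to 4 without TCD replicate 2 or 3, and the 4 h count of 4 rose to 7 without TCD replicate 3.

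**Figure D4:**
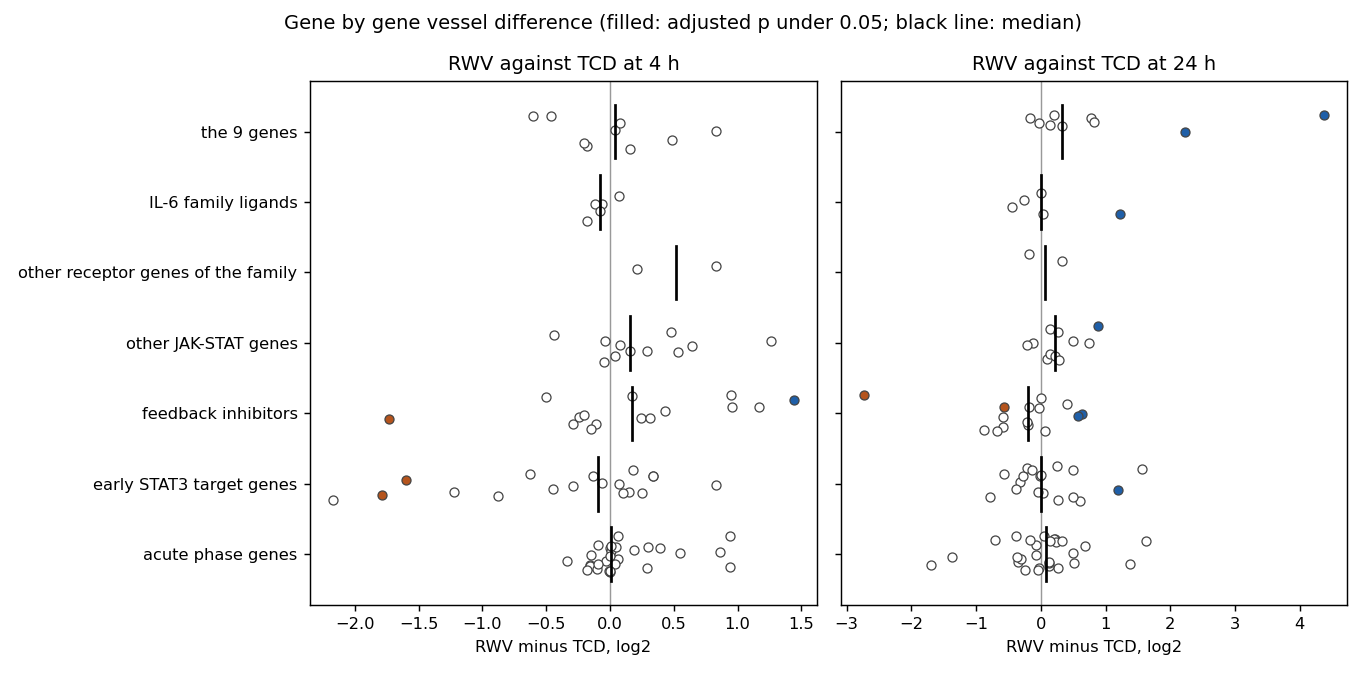
Difference between vessels (RWV minus TCD, log2) at 4 h and at 24 h for the 9 genes and the measured genes of the 6 pathway lists, 1 point per gene. Filled points had an adjusted p below 0.05 (blue higher, brown lower in RWV), black lines are medians, and the axes of the panels differ; Lepr (4.38) and Osmr (2.22) lie farthest right and Ptpn2 (-2.73) farthest left at 24 h.

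Genes that mark other liver cells were read beside these results. Of 12 Kupffer and macrophage genes, 5 rose in RWV at 24 h against fresh, where 30.6% of all genes rose, and 1 rose in TCD, where 32.8% did. The median of the list by replicate was 2.78, -0.04 and 1.45 in RWV and 0.59, -0.03 and 0.16 in TCD. Between vessels at 24 h the median difference of the list was 0.67. By limma 1 of 12 was called, Cd68, at -1.21, where 6.87% of all genes were lower, and 3 had an unadjusted p below 0.05. The other 11 were above 0, from 0.06 for Ptprc and 0.07 for Clec4f to 1.64 ± 0.54 for Marco and 1.68 ± 0.59 for Cd5l.

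Of 4 cholangiocyte genes 3 were lower in RWV than in TCD at 24 h, led by Krt19 and Cldn4 (each -4.31), where 6.87% of all genes were lower. All 4 of them rose in TCD at 24 h against fresh, where 32.8% of all genes rose. Of 8 hepatocyte genes 7 fell in each vessel at 24 h, where 23.4% of all genes fell in TCD and 19.1% in RWV. The list medians per array were -1.39 to -1.19 in TCD and -0.99 to -0.89 in RWV. Of 6 endothelial genes 1 was higher and 1 lower in RWV than in TCD at 24 h, and of 5 stellate genes 1 was lower. Of all genes 8.36% were higher and 6.87% lower. None of 2 neutrophil genes was called, and no lymphocyte gene was measured. Since levels are not held, whether a marker is present or absent cannot be read here, and the part of other cells in the results above was not tested.

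The genes whose 15 values followed Lepr most closely, by Pearson's r at the probe set of largest spread, were Fancg (0.98), Firre (0.979), Fam131c (0.973), Abcc12 (0.969) and Smpdl3b (0.969). Of these Abcc12 differed between the 24 h vessels by 3.97 and Smpdl3b by 2.26. Those closest to Osmr were B4galt6 (0.962), the ligand gene Clcf1 (0.956), Cbr3 (0.954), Tkt (0.953) and Det1 (0.948). These are descriptions over 15 arrays of 5 groups, which share the culture time and vessel.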

How the data were processed

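The deposited values are log2 signals made by the authors with GCRMA, per the submitters' processing notes, which give no version; the labels name no aligner or build, and the files show that the fresh median had been subtracted from all 45101 probe sets (tolerance 1e-06). That the logarithm is to base 2 follows from the scale GCRMA writes. The 5 groups entered 1 limma fit (version 3.58.1; lmFit, contrasts.fit, eBayes; R 4.3.3, data.table version 1.17.8) over all 15 arrays with 10 residual degrees of freedom; the 3 arrays per group limit the precision. The fit covered 22096 probe sets with 1 gene symbol that were not at background. Background meant a correlation above 0.8 with the per-array median of the least variable 20% of probe sets and an SD below 0.5, which 19608 probe sets met. A gene was read from its remaining probe set with the largest SD (12423 genes), and p was adjusted by Benjamini-Hochberg within each of 9 comparisons. Errors after ± are standard errors of that fit. The fit was tested on simulated data.

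The 9 genes were chosen with earlier results of these data known. The gene lists were written from general knowledge, but with those results known too. Named genes followed a rule: every probe set of the 9, up to 3 called genes each way with the largest changes in a list and comparison, or else the gene with the smallest p. The text names those of the comparisons it describes by gene.

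Each group has replicates 1 to 3, and the labels give no meaning to these numbers. In deviations from the group means, 15 of 15 arrays resembled most an array with the same number. All 3 correlations between same-numbered arrays exceeded 0.1 in 5 of 10 pairs of groups, among them TCD and RWV at 4 h (0.34, 0.48 and 0.49) and each of these with fresh cells. The pairing thus comes from the data. The fit without a replicate block was kept as the reported one. Alternatives were to skip the background filter, to average a gene's probe sets, to fit only the groups compared, the replicate block, centring on reference genes, leaving out each array in turn, 1 probe set per gene in the fit, and no probe sets of shared sequence. The protein motifs planned for the receptors were not searched.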

Additional observations from a re-analysis of the deposited data

Results flagged for a closer look

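The change of the vessel difference from 4 h to 24 h was tested by the interaction in limma (adjusted p below 0.05). Among the 9 genes and the 79 pathway genes, 7 were called. This is a smaller share than the 12.6% of all genes that were called. Lepr had the largest value, 4.35 ± 0.48, from 0.04 at 4 h to 4.38 at 24 h; it was chosen with these data known, so its value is a description. Fos changed by 2.99 ± 0.45, from -1.79 to 1.20. Irf1, an interferon response factor, changed by 1.49 ± 0.43, from -0.88 to 0.61. Ptpn6 changed by 0.87 ± 0.22, from -0.29 to 0.58.

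In the other direction Socs7 changed by -1.63 ± 0.38, from 0.96 to -0.67. Pias1 changed by -1.04 ± 0.30, from 1.44 to 0.40, and Pias2 by -0.88 ± 0.18, from 0.31 to -0.57. Centring on reference genes moved this change by 0.65 over all genes, and the calls of Pias1 (-0.39) and Pias2 were then lost. That of Pias1 was also lost with only the groups compared, and that of Pias2 over the mean of its probe sets; without probe sets of shared sequence the Pias2 value was 0.28. The call of Irf1 was lost when any 1 of 9 arrays was left out, that of Pias1 with any 1 of 12, and that of Ptpn6 with RWV replicate 3 at 4 h or TCD replicate 3 at 24 h.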

How the results depend on the processing

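Over 7 other settings and leaving out each of the 15 arrays, the differences of the 9 genes moved by less than the residual SD in 1688 of 1782 comparisons with the reported value, by more in 91, and in the other 3 a called difference turned sign. Those 3 were Jak1 in RWV at 24 h against fresh (-0.19, reference genes) and Stat3 in TCD at 24 h against fresh (-0.45, reference genes; -0.03, mean of probe sets). Differences that were not called turned sign in 41 more: 15 with reference genes, among them Jak1 and Jak2 in TCD at 24 h against fresh (-0.87 and -0.66), 5 over the mean of probe sets, among them Lifr between vessels at 24 h (-0.09), 1 without probe sets of shared sequence and 20 with 1 array left out, where none exceeded 0.3 in size as reported. The vessel difference at 24 h with 1 array left out ran from 3.97 to 4.91 for Lepr and from 1.90 to 2.53 for Osmr. Of the 9 genes, centring on reference genes made 8 called between vessels at 24 h and 6 for the interaction; the replicate block made 1 at 4 h and 2 for the interaction, and only the groups compared 2 for the interaction. The interaction count ran from 1 to 2 with 1 array left out. Of the 79 pathway genes, 14 were called between vessels at 24 h with the replicate block and 33 with reference genes, and 3 to 9 with 1 array left out. At 4 h 17 were called with no background filter, 0 with only the groups compared and 3 to 7 with 1 array left out. For the interaction 10 were called over the mean of probe sets, 10 with the replicate block and 31 with reference genes.

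Of 109 calls of named pathway genes, 37 were lost under at least 1 setting. Signs turned without probe sets of shared sequence for Clcf1 against fresh (0 in RWV and -0.03 in TCD at 24 h, -0.04 in RWV at 4 h) and Pias2 (0.64 between vessels at 24 h, 0.28 for the interaction), over the mean of probe sets for Pias2 (0.07) and Sos1 (0.1, TCD at 24 h), and with reference genes in TCD at 24 h for Grb2 (-0.38), Stat5b (-0.02) and Stat6 (-0.54). The replicate block also called Il6st in TCD from 4 h to 24 h (0.49); the counts of the 9 genes in the other 6 comparisons were the same with it. The causes were not tested beyond these settings. Signal over background limits weak genes, whose levels are not held.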

Other observations

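The genes whose 15 values ran closest to Il6ra were likewise low in both vessels at 24 h: Gulo (r = 0.976), Ctse (0.975), C8a (0.973), Ildr2 (0.97) and Hrg (0.97). Those closest to Socs3 were Cyp2u1 (0.989), Zfp36 (0.978), 4833411C07Rik (0.977), Myo6 (0.975) and Abcc6 (0.973). Zfp36, an RNA-binding protein that shortens the life of cytokine messages, differed from fresh by -4.64 in TCD and -4.22 in RWV at 24 h. Between the 9 genes themselves, Pearson's r over the 15 arrays was highest for Stat3 and Jak1 (0.91) and for Lifr and Socs3 (0.9). It was 0.85 for Il6ra and Socs3, and 0.82 for Lepr and Osmr, for Il6ra and Lifr and for Osmr and Jak2. These values share arrays, groups and culture times, and are a description.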
